A study of Mus musculus with 12 samples.

Results

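mmu-miR-126a-3p, mmu-miR-126a-5p and mmu-miR-139-5p, written below without the species prefix, are microRNAs (miRNAs) known from the endothelial cells that line blood vessels. They were followed here in small RNA libraries of mitochondria isolated from mouse hearts. The 3 were taken by name, among 932 rows in all, and each passed the filter that left 646 rows for testing. The 12 libraries comprised 6 from db/db mice, a model of obesity and diabetes in which the leptin receptor is defective, and 6 from mice labelled WT. Heart was the labelled tissue and mitochondrial microRNA the labelled fraction in both genotypes; the sources used here give no age, sex or further allele for either. Samples are numbered 1 to 6 within a genotype, and nothing says that they were separate animals; the p-values therefore cover the spread among these samples alone, which may be technical. Levels are in RPM, reads of a miRNA per 1000000 reads of all listed rows.

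A miRNA is cut from a hairpin precursor whose 5p and 3p arms can each become a mature strand, and it represses messenger RNAs that pair with its seed, the bases 2 to 8. miR-126 is the best known endothelial miRNA: its 3p strand represses Spred1 and Pik3r2, inhibitors of vascular endothelial growth factor signalling, and mice without it have leaky, fragile vessels. Its 5p strand represses Dlk1, an inhibitor of Notch signalling, in endothelial cells. miR-126 is also found in platelets and in blood stem cells. miR-139-5p is known to repress the insulin-like growth factor receptor IGF1R in human tumour cells.

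The precursors show how the rows relate, 2 being arms of 1 hairpin and the third coming from another chromosome. In the RefSeq annotation of GRCm38.p6, a build other than the one named for the table, the miR-126a precursor lies on the plus strand at chr2:26591357-26591429. GENCODE places it inside the gene of Egfl7, a factor secreted by endothelial cells, on the same strand; an exon overlaps it in 1 of 9 Egfl7 transcripts and the others have an intron there. The gene Mir126b overlaps it on the other strand, and the sources used here do not say whether counting used strand. The miR-139 precursor lies on the plus strand at chr7:101475376-101475443, in an intron of all 10 overlapping transcripts of Pde2a, which encodes a phosphodiesterase that degrades cyclic nucleotides. The hairpins follow 5′ to 3′ as RefSeq gives them, with the annotated mature strands in capitals (for miR-126a the 3p strand, for miR-139 both strands).
Mir126a hairpin: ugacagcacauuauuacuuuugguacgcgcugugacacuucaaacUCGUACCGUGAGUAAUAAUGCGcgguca
Mir139 hairpin: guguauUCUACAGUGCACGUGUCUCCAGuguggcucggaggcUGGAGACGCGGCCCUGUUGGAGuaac

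The mature strands are given next with the seed in capitals, since the abundant strands of the 2 loci differ there.
miR-126a-3p: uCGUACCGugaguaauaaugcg
miR-139-5p: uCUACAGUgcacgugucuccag
miR-139-3p: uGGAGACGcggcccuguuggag
Each of these 3 seeds occurred in 1 listed row, its own, among the 635 of 730 named rows that had a RefSeq sequence.

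The recovered depth ranged from 412749 to 1382046 reads per library, so that 1 read was worth 0.724 to 2.42 RPM. WT library 4 and db/db library 6 were the shallowest, and earlier work on these data saw them stand apart; values without them are given where they bear on a member. Muscle miRNAs dominated the libraries, with miR-133a-3p of cardiac and skeletal muscle at 341153 ± 27552 RPM in db/db and 323867 ± 22817 RPM in WT libraries (SD, n = 6 each). Of the 6 endothelial names listed for the check of the label, 4 had a row, and those 4 were above 0 in every library. Their summed level was 16736 to 26261 RPM in db/db and 20045 to 30426 RPM in WT libraries. These 4 rows are the 3 members and miR-139-3p, so no endothelial marker other than the members and their partner strand was read in this check. The 5 cardiomyocyte miRNAs summed to 338731 to 440054 RPM in db/db and 367382 to 421300 RPM in WT libraries. No other fraction was analysed here, so the place of these miRNAs inside or outside mitochondria was not tested.

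miR-126a-3p was the abundant strand and miR-126a-5p and miR-139-5p were of middle abundance in both genotypes. miR-126a-3p ranked between 10 and 18 among the rows of a db/db library and between 9 and 14 in a WT library. It held 1.37 to 2.34% of reads in db/db and 1.70 to 2.72% in WT libraries. Its lowest, median and highest levels were 13733, 17060 and 23370 RPM in db/db libraries, against 17031, 20944 and 27214 RPM in WT libraries. Of the 6 db/db libraries 3 lay below every WT library and none above the highest, and the other 3 lay inside the WT range, so the groups overlapped. The levels averaged 17883 ± 4029 RPM in db/db and 21959 ± 4257 RPM in WT libraries (SD, n = 6 each). miR-126a-3p rested on at least 9646 reads in each library. Counting error was therefore 0.899% of the mean in db/db and 0.786% in WT libraries, far under the spread between libraries of 22.5% in db/db and 19.4% in WT libraries.

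**Figure D1:**
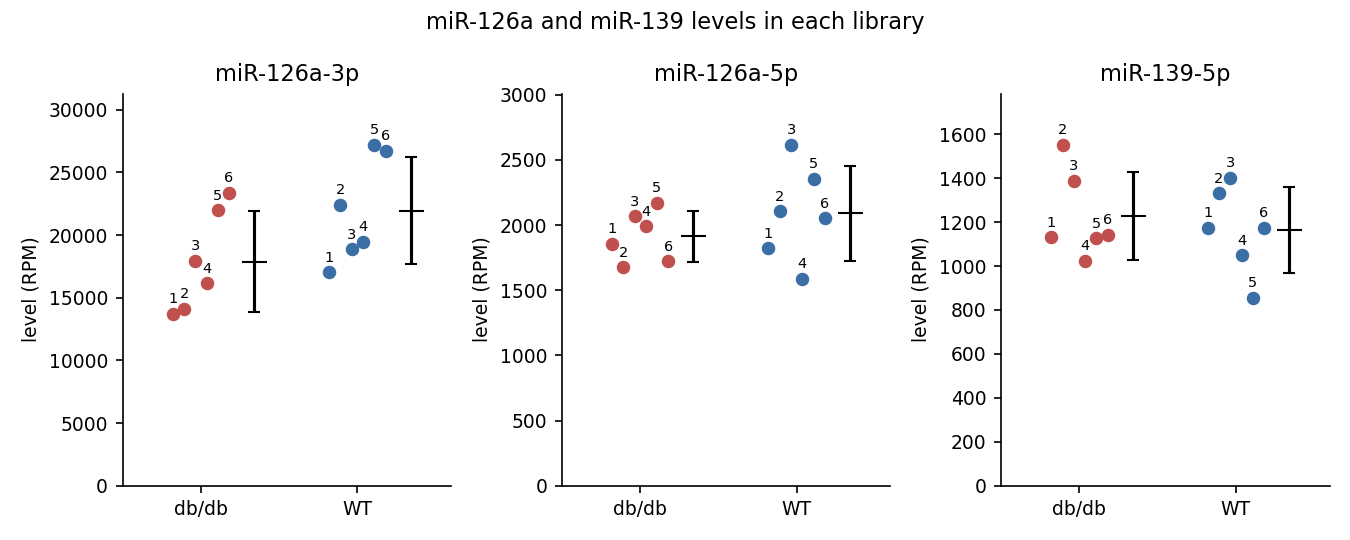
Levels in RPM of miR-126a-3p, miR-126a-5p and miR-139-5p, 1 point per library with its sample number, db/db left and WT right; the bar is the mean with 1 SD (n = 6). The 2 genotypes overlap in each panel, and the 3 lowest miR-126a-3p points are db/db libraries.

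miR-126a-5p had its lowest, median and highest levels at 1676, 1923 and 2173 RPM in db/db libraries, against 1588, 2079 and 2618 RPM in WT libraries. The db/db libraries lay wholly inside the WT range. Its mean was 1915 ± 196 RPM in db/db and 2090 ± 367 RPM in WT libraries (SD, n = 6 each), and its rank was 49 to 53 in db/db and 46 to 51 in WT libraries. miR-139-5p ran from 1024 through a median of 1137 to 1553 RPM in db/db libraries, against 856 through 1175 to 1403 RPM in WT libraries. Only db/db library 2 exceeded the highest WT library, and only WT library 5 was below the lowest db/db library. The mean of miR-139-5p was 1228 ± 200 RPM in db/db and 1165 ± 197 RPM in WT libraries (SD, n = 6 each). By level the order was miR-126a-3p, miR-126a-5p, miR-139-5p in every library of both genotypes, with no overlap between their ranges.

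Setting db/db against WT addressed which miRNAs of cardiac mitochondrial preparations differ in this diabetic model. None of the 3 passed the threshold of an adjusted p under 0.05 in limma on log2(RPM + 1), where 1 of 646 rows did (0.155%), miR-22-3p, which was lower. For miR-126a-3p the log2 fold change stood at -0.30 ± 0.14 (SE; adjusted p = 0.504 by limma). That is a fold of 0.810 on the log2(RPM + 1) scale, with a 95% interval of 0.671 to 0.978 that is not adjusted for the number of rows. The interval depended on the abundance trend of the limma fit. Without the trend the SE was 0.23, and the 95% interval of the log2 fold change ran from -0.80 to 0.19. With the trend, the unadjusted limma p of miR-126a-3p was 0.0289, and it ranked 37 by p. Of all rows tested, 58 (8.98%) had one under 0.05, 30 of them lower (4.64%) and 28 higher (4.33%). Among the 64 rows that averaged 1000 RPM or more, 19 had one under 0.05. The groups did not overlap in 6 rows (0.929%), and no member was among them.

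miR-126a-5p and miR-139-5p differed by less than their standard error. On the log2 scale miR-126a-5p stood at -0.11 ± 0.15 (SE; limma adjusted p = 0.747), with an interval of the fold from 0.751 to 1.14. miR-139-5p stood at 0.08 ± 0.16 (SE; limma adjusted p = 0.851), with an interval of the fold from 0.842 to 1.33. These intervals are not adjusted for the number of rows, and a p short of the threshold does not show equal levels. In simulated counts limma recovered 0 of 4 rows of 1000 RPM or more that were changed 1.5-fold. The sign for miR-139-5p rested on WT library 5, its lowest, since without that library the log2 fold change was -0.0058. Without db/db library 2, its highest, the value kept its sign but was 0.0087. Without WT library 4 and db/db library 6, miR-126a-3p stood at -0.42 (limma adjusted p = 0.240), miR-126a-5p at -0.16 (0.703) and miR-139-5p at 0.07 (0.912). In these bulk preparations the amount of endothelial material, the level of a miRNA per cell and its place inside or outside mitochondria cannot be told apart. None of these was tested.

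**Figure D2:**
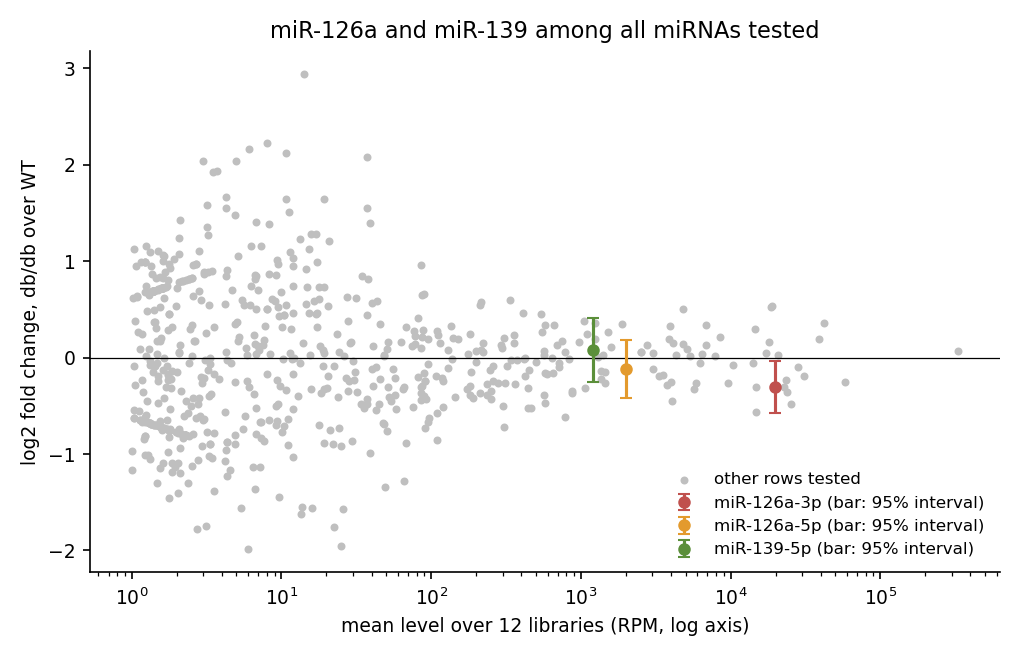
Log2 fold change, db/db over WT, against the mean level in RPM on a log axis for the 646 rows tested by limma, with the 3 endothelial miRNAs in colour and their 95% intervals as bars. miR-126a-3p lies at -0.30, miR-126a-5p at -0.11 and miR-139-5p at 0.08, among grey rows of like abundance.

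Against other abundant miRNAs, the members had an ordinary spread. Among the 64 rows that averaged 1000 RPM or more, the SD of log2 levels within a genotype had a median of 0.25. It was 0.30 for miR-126a-3p, above 43 of the 64, 0.21 for miR-126a-5p, above 20, and 0.24 for miR-139-5p, above 29. By fold change, 7 of the 64 rows stood lower than miR-126a-3p, 23 lower than miR-126a-5p and 40 lower than miR-139-5p. These 64 rows had a median log2 fold change of 0.03, with 28 below 0, and all 646 rows had a median of -0.04, with 338 below 0.

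miR-126a-3p also differed with the sample number. A grouping of libraries by number, 1 to 3 and 4 to 6, had been noticed in these same libraries before, so a test of it here is not independent evidence; the labels name no batch. miR-126a-3p averaged 20497 ± 3825 RPM in db/db libraries 4 to 6 and 15270 ± 2340 RPM in db/db libraries 1 to 3 (SD, n = 3 each). In WT libraries it averaged 24471 ± 4344 RPM in 4 to 6 and 19448 ± 2741 RPM in 1 to 3 (SD, n = 3 each). The log2 difference, 4 to 6 minus 1 to 3 with genotype in the model, was 0.37 ± 0.11 (SE; limma adjusted p = 0.0416), 1 of 17 calls among the 646 rows (2.63%). miR-139-5p had the opposite sign without passing, at -0.32 ± 0.15 (SE; limma adjusted p = 0.372). Its mean was 1098 RPM in 4 to 6 and 1358 RPM in 1 to 3 in db/db libraries, and 1027 RPM in 4 to 6 and 1303 RPM in 1 to 3 in WT libraries. For miR-126a-5p the value was -0.03 ± 0.14 (SE; limma adjusted p = 0.961).

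With the number grouping as a factor the genotype values were unmoved by construction, and miR-126a-3p had a limma adjusted p of 0.191. Within libraries 4 to 6 alone its log2 fold change was -0.26 (limma adjusted p = 0.770), and within 1 to 3 alone it was -0.35 (0.235). The difference between these values, tested as an interaction, was 0.09 (limma adjusted p = 0.975). For miR-126a-5p the values were -0.01 in 4 to 6 and -0.21 in 1 to 3, and for miR-139-5p 0.11 in 4 to 6 and 0.05 in 1 to 3. No member passed in either set of 6 libraries. A part of a batch in the genotype values was not tested beyond these fits.

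Ratios between miRNAs of 1 library do not depend on how that library was scaled, and 4 were compared. miR-126a-3p exceeded miR-126a-5p in every library. The log2 ratio of the 5p to the 3p strand had its lowest, median and highest values at -3.76, -3.10 and -2.89 in db/db libraries, against -3.70, -3.47 and -2.85 in WT libraries. The ratio thus spanned nearly the same range in both genotypes. The 3p strand was 9.19 times the 5p strand in db/db and 10.5 times in WT libraries by the mean log2 ratio. The difference was 0.19 (exact permutation test over 924 assignments, two-sided, p = 0.303; adjusted over the 4 ratios 0.404).

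For miR-139 the 5p strand was the abundant one and its partner miR-139-3p was near the limit of detection. miR-139-3p had 9 to 34 reads in db/db and 1 to 32 reads in WT libraries, where 3 reads are worth 2.17 to 7.27 RPM. Its level was 21.6 ± 11.4 RPM in db/db and 19.2 ± 13.8 RPM in WT libraries (SD, n = 6 each). Counting error alone came to 26.0% of the mean in db/db and 26.7% in WT libraries. The log2 ratio of miR-139-5p to miR-139-3p had a median of 5.96 in db/db libraries, with a range of 4.98 to 6.55. In WT libraries the median was 5.91, with a range of 5.13 to 9.69. The highest value came from WT library 5, where 824 reads of miR-139-5p stood against 1 read of miR-139-3p, a ratio with a 95% counting interval of 147 to 32585. The mean difference was -0.61 (exact permutation test, two-sided, p = 0.509; adjusted 0.509), and 0.010 without that library.

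**Figure D3:**
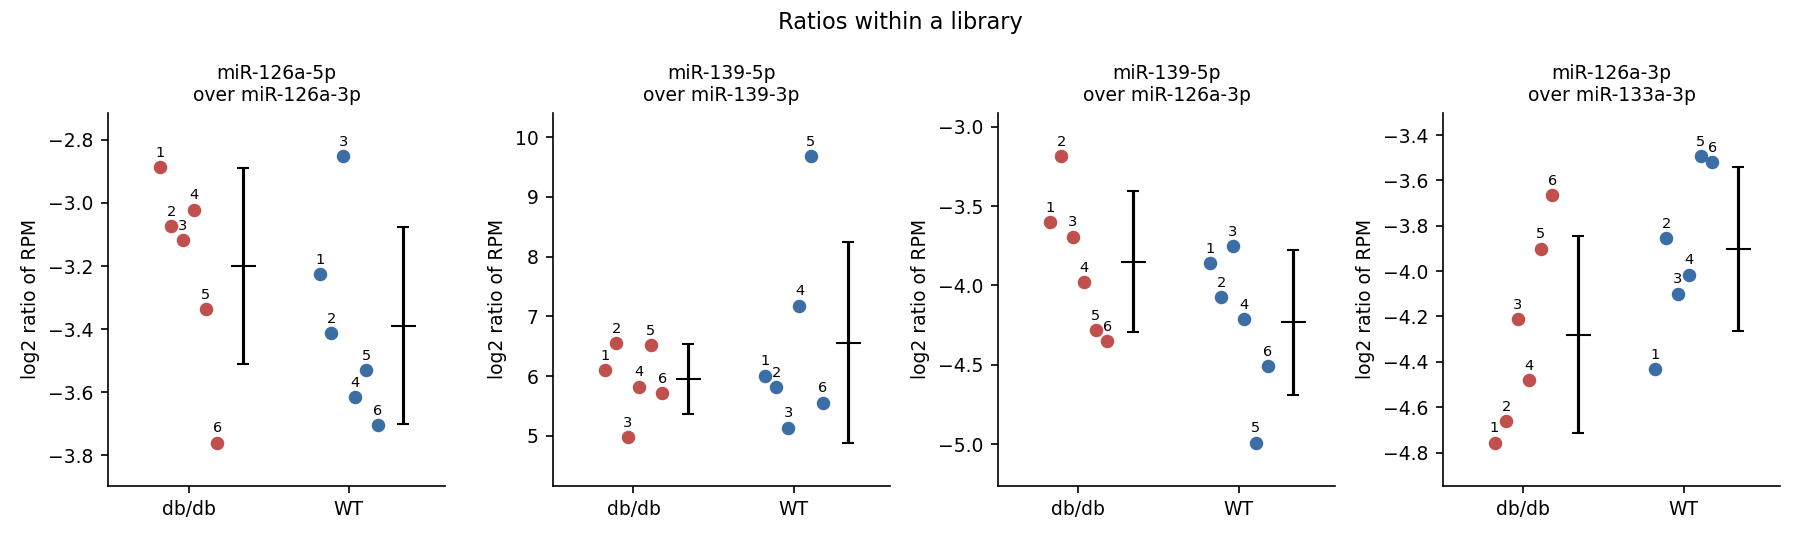
Log2 ratios of RPM within each library for 4 pairs of miRNAs, 1 point per library with its sample number, db/db left and WT right; the bar is the mean with 1 SD (n = 6). The genotypes overlap in all 4 panels. WT library 5 is highest, at 9.69, in the panel of miR-139-5p over miR-139-3p, where it has 1 read of miR-139-3p.

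The 2 endothelial loci were also set against each other, and miR-126a-3p against the muscle miRNA miR-133a-3p. The log2 ratio of miR-139-5p to miR-126a-3p was -4.35 at its lowest, -3.84 at the median and -3.18 at its highest in db/db libraries, against -4.99, -4.14 and -3.75 in WT libraries. Its difference was 0.38 (exact permutation test, two-sided, p = 0.175; adjusted 0.351), with db/db libraries 1 and 2 and, narrowly, library 3 above every WT library. It was 0.23 without WT library 5 and 0.25 without db/db library 2. The log2 ratio of miR-126a-3p to miR-133a-3p, an endothelial against a muscle miRNA, was -4.76, -4.35 and -3.66 in db/db libraries, against -4.43, -3.94 and -3.49 in WT libraries (lowest, median and highest). Its difference was -0.38 (exact permutation test, two-sided, p = 0.132; adjusted 0.351). db/db libraries 1, 2 and 4 lay below every WT library in this ratio. Of the 5 cardiomyocyte miRNAs, miR-133a-3p alone had a log2 fold change above 0, at 0.07. miR-1a-3p stood at -0.25 and miR-499-5p at -0.26, near the -0.30 of miR-126a-3p. Ratios to muscle miRNAs other than miR-133a-3p were not tested. None of the 4 ratios passed, and the smallest p that this test can give is 0.00216.

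None of the 3 pairs of members had a correlation that passed the threshold, and 12 libraries are too few to exclude a joint movement. The 2 strands of miR-126a had a Pearson correlation of 0.38 over 12 libraries (permutation p = 0.217, adjusted over the 3 pairs 0.325) and a Spearman correlation of 0.38 (permutation p = 0.218, adjusted 0.655). Without the 2 libraries farthest from the median of miR-126a-3p, WT 5 and db/db 1, r was 0.23. miR-139-5p with miR-126a-3p gave r = -0.42 (permutation p = 0.179, adjusted 0.325) and rho = -0.24 (permutation p = 0.456, adjusted 0.684), and r = -0.32 without the same 2 libraries. miR-139-5p with miR-126a-5p gave r = -0.04 (permutation p = 0.903, adjusted 0.903) and rho = 0.02 (permutation p = 0.955, adjusted 0.955). Without WT libraries 3 and 4, the farthest for miR-126a-5p, this r was -0.53. Within genotypes r was 0.29 in db/db and 0.32 in WT libraries for the strands of miR-126a (6 libraries each). It was -0.30 in db/db and -0.47 in WT libraries for miR-139-5p with miR-126a-3p, and -0.37 in db/db and 0.21 in WT libraries for miR-139-5p with miR-126a-5p. All rows of a library share its scaling, so a high share of 1 miRNA lowers the others. Between numbers 4 to 6 and 1 to 3, miR-126a-3p differed by 0.37 and miR-139-5p by -0.32 (log2). The part of that grouping in these correlations was not tested.

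**Figure D4:**
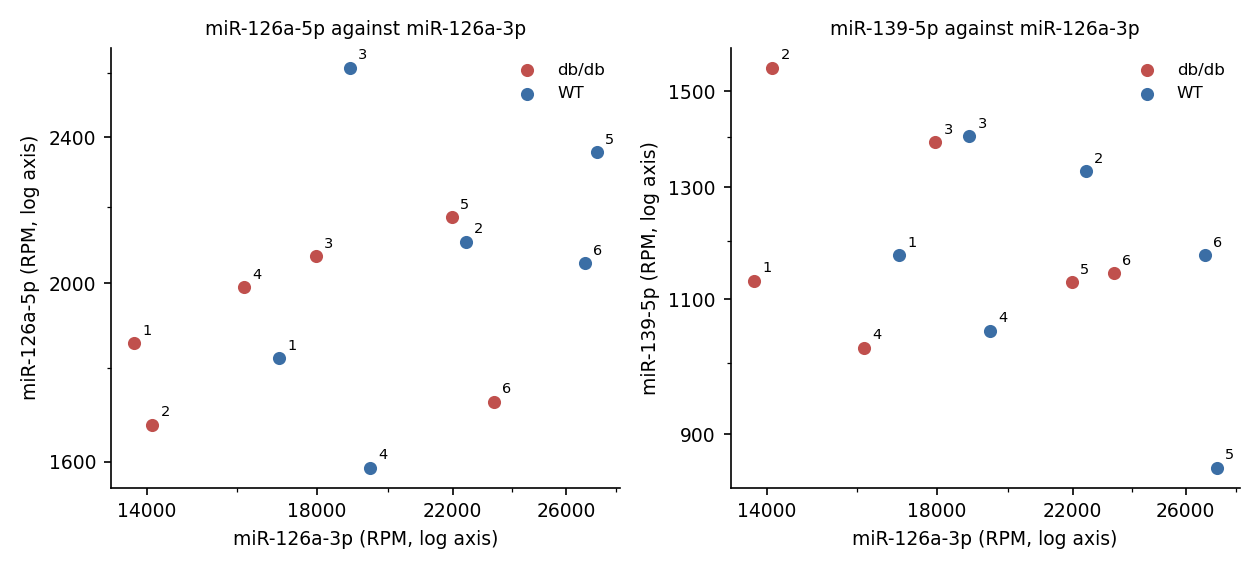
miR-126a-5p (left) and miR-139-5p (right) against miR-126a-3p, all in RPM on log axes, 1 point per library with its sample number and a colour for db/db or WT. The points scatter widely, with r = 0.38 on the left and r = -0.42 on the right over 12 libraries.

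The miRNAs most like each member over the 12 libraries differed from member to member. Likeness was the Pearson correlation of log2(RPM + 1) with 145 other named rows of at least 100 RPM, given as a description. Levels were not centred on the number grouping, by which miR-126a-3p differed, so the part of that grouping in the likeness was not tested. miR-126a-3p was closest to miR-16-5p, of the miR-15 family (0.96). Next came miR-143-3p of smooth muscle (0.89), miR-223-3p of myeloid cells (0.88), miR-378a-3p, from an intron of Ppargc1b (0.86), and miR-374b-5p (0.84). Of these, miR-16-5p had a log2 fold change of -0.25, miR-143-3p of -0.48 and miR-223-3p of -0.72 in db/db over WT (limma adjusted p = 0.717, 0.0869 and 0.109). miR-378a-3p stood at -0.10 and miR-374b-5p at -0.51 (limma adjusted p = 0.733 and 0.717). With the number grouping as a factor, miR-143-3p and miR-223-3p passed (limma adjusted p = 0.00155 and 0.0480). That grouping was noticed in these same libraries, and 10 of 646 rows passed in that fit. miR-126a-5p was closest to miR-199a-5p of fibroblasts (0.79), miR-30e-5p (0.74), miR-101b-3p (0.72), miR-181c-5p (0.72) and miR-195a-5p (0.64). Their log2 fold changes ran from -0.62 to -0.09. miR-195a-5p, at -0.62, also passed with the number grouping as a factor (limma adjusted p = 0.0392, against 0.109 without it). miR-139-5p was closest to miR-181b-5p (0.85), let-7d-3p (0.80), miR-125a-5p (0.75), miR-151-5p (0.75) and miR-99b-5p (0.74). The log2 fold changes of these ran from 0.00043 to 0.35. The 3 sets of 5 had no miRNA in common, and the other strand of miR-126a was in neither set for its partner.

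Other miRNAs known to act on endothelial cells or vessel growth were read from a list of 24, all of which had a row and were tested. In 16 the value was below 0 and in 8 above, with a median log2 fold change of -0.23, beside -0.04 over all 646 rows. By limma 0 passed the threshold and 6 had an unadjusted p under 0.05. So did 58 of all 646 rows (8.98%), and 19 of the 64 rows that averaged 1000 RPM or more. Of those 6, 4 had values above 0 (miR-92a-3p, miR-221-3p, miR-218-5p and miR-34a-5p, at 0.38 to 0.58) and 2 below (miR-24-3p at -0.36 and miR-23b-3p at -0.26), whereas most of the list was below 0. The most abundant were miR-24-3p (-0.36 ± 0.12), miR-23a-3p (-0.23 ± 0.12) and miR-27b-3p (-0.07 ± 0.13), of the clusters that act on vessel sprouting (log2 fold change, SE). Their limma adjusted p were 0.198, 0.575 and 0.827. miR-92a-3p, which restrains vessel growth, stood at 0.51 ± 0.15 (SE; limma adjusted p = 0.109). With the number grouping as a factor, miR-24-3p and miR-92a-3p passed, with limma adjusted p of 0.0480 and 0.00691. They were among 10 of 646 rows that passed in that fit, whose grouping was noticed in these same libraries.

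Markers of other cells that the preparations held are given beside miR-126a-3p; their part in its value was not tested. Smooth muscle and fibroblast miRNAs had 6 of 8 values below 0 (median -0.35), and their summed level was 25077 to 39813 RPM in db/db and 34742 to 47983 RPM in WT libraries. The sum was mostly miR-143-3p, at a mean of 21295 RPM in db/db and 29619 RPM in WT libraries. By log2 fold change miR-143-3p stood at -0.48 and miR-145a-5p at -0.33. The 2 values above 0 were miR-199a-3p at 0.06 and miR-214-3p at 0.45 (limma adjusted p = 0.883 and 0.543). Cardiomyocyte miRNAs had 4 of 5 values below 0 (median -0.25), with miR-133a-3p at 0.07, miR-1a-3p at -0.25 and miR-499-5p at -0.26. Red cell miRNAs had 1 of 4 below 0 (median 0.40) and summed to 18284 to 30731 RPM in db/db and 9935 to 21146 RPM in WT libraries. This sum was mostly miR-486a-5p, at a mean of 21760 RPM in db/db and 15389 RPM in WT libraries. The mean of miR-451a was 1822 RPM in db/db and 1234 RPM in WT libraries. By log2 fold change miR-486a-5p stood at 0.53, miR-451a at 0.26 (limma adjusted p = 0.717) and miR-144-5p at -0.53, the last at 0 in 1 library. Whether the sum follows red cells was not tested. Leukocyte and platelet miRNAs had 3 of 6 below 0 (median -0.16) and summed to 3425 to 7087 RPM in db/db and 4008 to 5766 RPM in WT libraries. Of these miR-150-5p stood at 0.20, miR-146a-5p at -0.47 and miR-223-3p at -0.72, and miR-142a-3p was at 0 in 3 libraries. No miRNA of these lists passed the limma threshold in the fit without the number grouping. With that grouping as a factor, miR-143-3p and miR-223-3p passed and were lower in db/db libraries, and miR-486a-5p passed and was higher (limma adjusted p = 0.00155, 0.0480 and 0.00155). In that fit 10 of 646 rows passed. Its grouping was noticed in these same libraries and the labels name no batch, so these calls are not independent evidence.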

How the data were processed

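Small RNA of 12 libraries (6 db/db, 6 WT) was ligated to adapters, reverse transcribed and amplified, per the labels' protocols. The authors deposited values named TPM, which are RPM here: reads scaled by them to a column sum of 1000000, 1 step per read. The design assumed TPM, and the log-scale test was kept. The submitters' processing notes name GRCm39; aligner and annotation are not given there. Whole reads were recovered (100% of values within 0.01 of a read). The limit for a 0, 3 reads, was 2.17 to 7.27 RPM and covers counting error only.

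limma 3.58.1 (R 4.3.3, abundance trend, two-sided, Benjamini-Hochberg) was run on log2(RPM + 1) for 646 rows averaging 1 RPM or more, filtered again where libraries were left out. Alternatives were edgeR 4.0.16, DESeq2 1.42.0, and other pseudocounts, filters, scalings, weights, blocks and subsets. Ratios used exact permutation, and correlations 100000 permutations (exact within genotypes; scipy 1.17.1). The limma fit was checked on simulated counts. Of rows changed 1.5-fold it recovered 0 of 67, and 0 of 4 among those of 1000 RPM or more. At 2-fold it recovered 11 of 67 and 7 of 8, and at 4-fold 18 of 66 and 9 of 9. Of its 30 calls 1 was false. Members and lists were chosen with earlier results of these data known. Named by rule were the members, miR-139-3p, the 5 most alike per member, the 3 most abundant per list and miR-133a-3p. miR-22-3p, miR-92a-3p, miR-221-3p, miR-218-5p, miR-34a-5p, miR-23b-3p, miR-142a-3p and miR-214-3p were named after their values were seen. Sequences came from RefSeq (GRCm38.p6), host genes from GENCODE M21.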

Additional observations from a re-analysis of the deposited data

Results flagged for a closer look

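Levels and ratios of the members and of miR-139-3p were searched in 16 groups of 6 libraries for a library set apart from its group. About 1 group in 20 is picked by chance, and 1 was picked here: miR-139-3p among the db/db libraries, at 44.0 RPM (34 reads) in library 3 and at most 21.8 RPM in the other db/db libraries, a gap of 0.700 of the range. In WT libraries it was also highest in library 3, at 39.9 RPM (32 reads).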

How the results depend on the processing

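The values of miR-126a-3p and miR-126a-5p kept their sign and stayed short of the threshold under all 34 alternative fits, with log2 fold changes of -0.42 to -0.23 and -0.24 to -0.01. That of miR-139-5p, up to 0.14, never passed and reversed in 1, without WT library 5 (-0.0058). The lowest adjusted p of miR-126a-3p was 0.0933, with the replicate block, against 0.504 without it. Its unadjusted p ran from 0.00217 (limma with the block) to 0.207 (limma without the abundance trend). Correlations between the deviations of same-numbered libraries were -0.06 to 0.31 and not over 0.1 in every number, so the numbers were not taken as pairs. With the replicate block, exact sign flips gave p = 0.03125 (adjusted 0.0625), the smallest that 6 pairs allow, for the ratios of miR-139-5p to miR-126a-3p and of miR-126a-3p to miR-133a-3p (0.175 and 0.132 without it). With so few pairs, missing the threshold after adjustment says nothing about stability. The limma calls with the block included miR-143-3p (adjusted p = 0.00145), miR-223-3p (0.0340), miR-486a-5p (0.00410), miR-24-3p (0.0234), miR-92a-3p (0.00419) and miR-195a-5p (0.0234).

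The count of miRNAs called by limma, 1, became 0 after changing the pseudocount to 0.1 or to 10 RPM, dropping the filter, raising it to 10 or to 100 RPM, normalizing by quantiles, dropping the trend, keeping named rows only, or removing both WT 4 and db/db 6. It became 2 after median-of-ratios scaling, 9 with the replicate block, 10 when the number grouping was a factor and 3 within numbers 4 to 6. edgeR called 3, and DESeq2 8 over the 170 rows that it adjusted. Chosen after seeing the data, edgeR gave 11 with the block and 9 with the number grouping, and median-of-ratios scaling gave 6 and 7. Omitting single libraries gave 0 to 7 calls (db/db 5 omitted 7, WT 1 or WT 3 omitted 6, db/db 4 omitted 3, db/db 6 omitted 1, any other omitted 0). No member was among the calls of any of these fits. What caused the differences was not tested.

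Omitting single libraries moved the log2 ratio of miR-139-5p to miR-139-3p between -0.90 and 0.010, reversing it without WT library 5. The correlation of miR-139-5p with miR-126a-5p reversed in WT libraries alone (0.21). Of the 5 miRNAs most like a member, Spearman correlation kept 4 for miR-126a-3p and 3 each for miR-126a-5p and miR-139-5p; centring within genotype kept 4, 4 and 3. Depth limits miR-139-3p, which had as little as 1 read.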

Other observations

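Ratios by sample number were computed after the data were seen. The log2 ratio of miR-139-5p to miR-126a-3p averaged -4.21 in db/db and -4.57 in WT libraries 4 to 6, and -3.49 in db/db and -3.89 in WT libraries 1 to 3. The difference of db/db from WT was 0.36 within 4 to 6 (exact permutation test, two-sided, p = 0.3) and 0.40 within 1 to 3 (p = 0.1, the smallest p that 3 against 3 allows). The log2 ratio of miR-126a-3p to miR-133a-3p differed by -0.34 within 4 to 6 (exact permutation test, two-sided, p = 0.3) and by -0.42 within 1 to 3 (p = 0.2).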
